A study of Mus musculus with 2 samples.

Results

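The genes followed here act in extracellular proteolysis, and they were 10 of the 24785 genes listed in single-cell RNA-seq tables of CD45+ lung cells. They were taken by their symbols and comprised the matrix metalloproteinases Mmp12, Mmp14 and Mmp19, the membrane-bound proteases Adam8 and Adam17, the inhibitors Timp1, Timp2 and Timp3, the urokinase gene Plau and the urokinase receptor gene Plaur. All 10 were listed in both tables. The BLM library held living CD45+ cells pooled from the lungs of 3 C57BL/6N wild-type mice, aged 10 to 16 weeks per the methods, 15 days after 50 µg of bleomycin into the trachea. The naive library held the same sort from 3 pooled untreated C57BL/6N mice, whose age is not given in the sources used here. Both were prepared on the BD Rhapsody whole-transcriptome system, which tags each captured transcript with a unique molecular identifier (UMI). Each group was a single library, so no test between groups was possible. Every interval is a 95% interval that covers counting error only, and library, sequencing run and treatment cannot be told apart.

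Bleomycin injures the lung epithelium and is used in mice to produce pulmonary fibrosis, in which macrophages both degrade and help to deposit matrix. Matrix metalloproteinases cut collagens, elastin and other matrix proteins outside the cell, and tissue inhibitors of metalloproteinases (TIMPs) bind their active sites. ADAM proteases sit in the membrane and release the outer parts of cytokines and receptors. Urokinase bound to its receptor turns plasminogen into plasmin at the cell surface, which opens fibrin and can activate metalloproteinases.

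Promoter sequence is shown for the gene with the highest BLM to naive ratio among the 10 and for the gene whose levels over cell classes were most like it (Mmp12 and Timp1, described below). Each run holds 250 bases before and 50 bases after an annotated start, 5′ to 3′ on the strand of the gene, from RefSeq on GRCm38.p6. Capitals mark the AP-1 letters TGANTCA or the PU.1 letters GAGGAAG, searched on both strands.
Mmp12, first start (chr9:7344147-7344446, plus strand): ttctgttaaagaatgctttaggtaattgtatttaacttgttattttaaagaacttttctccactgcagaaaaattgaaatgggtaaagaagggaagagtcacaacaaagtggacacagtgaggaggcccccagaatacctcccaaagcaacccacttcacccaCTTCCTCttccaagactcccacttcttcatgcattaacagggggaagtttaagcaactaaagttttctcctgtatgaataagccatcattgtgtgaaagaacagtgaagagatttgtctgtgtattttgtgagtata
Mmp12, second start (chr9:7347124-7347423, plus strand): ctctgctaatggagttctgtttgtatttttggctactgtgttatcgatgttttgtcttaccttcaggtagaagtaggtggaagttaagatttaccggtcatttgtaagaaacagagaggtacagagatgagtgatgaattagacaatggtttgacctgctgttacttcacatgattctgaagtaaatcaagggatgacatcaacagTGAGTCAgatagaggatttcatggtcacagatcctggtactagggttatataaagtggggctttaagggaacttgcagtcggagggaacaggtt
Timp1 (chrX:20869916-20870215, plus strand): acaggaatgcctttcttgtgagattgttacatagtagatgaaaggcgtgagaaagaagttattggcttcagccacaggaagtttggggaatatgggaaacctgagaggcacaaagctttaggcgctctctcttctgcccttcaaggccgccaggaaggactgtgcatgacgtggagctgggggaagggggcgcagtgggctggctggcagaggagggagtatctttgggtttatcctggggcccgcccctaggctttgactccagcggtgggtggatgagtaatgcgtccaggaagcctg
The second Mmp12 start had 1 AP-1 match beginning 44 bases before the start, and the first had 1 PU.1 match on the opposite strand beginning 87 bases before it. The Timp1 window held neither. Of the 8 genes with a window in the table, 2 had an AP-1 match (Mmp12 and Plaur) and the same 2 had a PU.1 match. Of all 32817 windows of 300 bases, 7.81% held the AP-1 letters and 13.6% the PU.1 letters. The Plaur window had its AP-1 match 69 bases and its PU.1 match 131 bases before the start. A match is a run of letters, and no binding was measured. Plau and Mmp19 had no window in the table.

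Some of the genes share their place with others. In GENCODE vM21 on GRCm38, Timp1 (chrX:20870166-20874735) lies inside Syn1 on the opposite strand with no shared exon, and Syn1 had 245 UMIs in BLM and 314 in naive cells. Exons of Timp3 (chr10:86300372-86349506) overlap Syn3, which had 10 and 7 UMIs. Exons of Adam17 (chr12:21323509-21373632) overlap Iah1 on the opposite strand, with 1091 and 619 UMIs. Exons of Mmp19 (chr10:128790910-128800824) overlap Tmem198b, with 175 and 221 UMIs, and those of Mmp12 (chr9:7344381-7369499) overlap Mmp1b, which had 0 UMIs in both libraries. Whether reads were counted by strand is not given in the sources used here. The other genes had no partner with a shared exon and a UMI. They are Mmp14 (chr14:54431612-54445364), Adam8 (chr7:139978932-139992562, minus strand), Timp2 (chr11:118301069-118355740, minus strand), Plau (chr14:20836660-20843385) and Plaur (chr7:24462484-24475968).

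After filtering, 4391 BLM and 3808 naive cells remained, with 21178260 and 16874692 UMIs and medians of 2380 and 2699.5 UMIs per cell. The libraries shared 22 barcodes. Cells were put into classes by the mean scaled level of marker genes that did not include the 10 genes, and class names mean cells that carry those markers. In all, 10 classes had 50 or more cells in both libraries and were compared. Among them were alveolar macrophages, the resident phagocytes of the airspace (419 BLM and 656 naive cells), and C1q macrophages, marked by complement C1q and Apoe (490 and 80 cells). Of the 490 BLM C1q macrophages 168 fell in expression clusters named alveolar, against 0 of the 80 naive ones. Levels are given as counts per 1000000 UMIs of the same cells (CPM). The CD45 gene Ptprc had a UMI in 90.3% of BLM and 93.3% of naive cells, but in 44% of the 25 fibroblast-gated and 40% of the 20 endothelial-gated BLM cells.

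**Figure D1:**
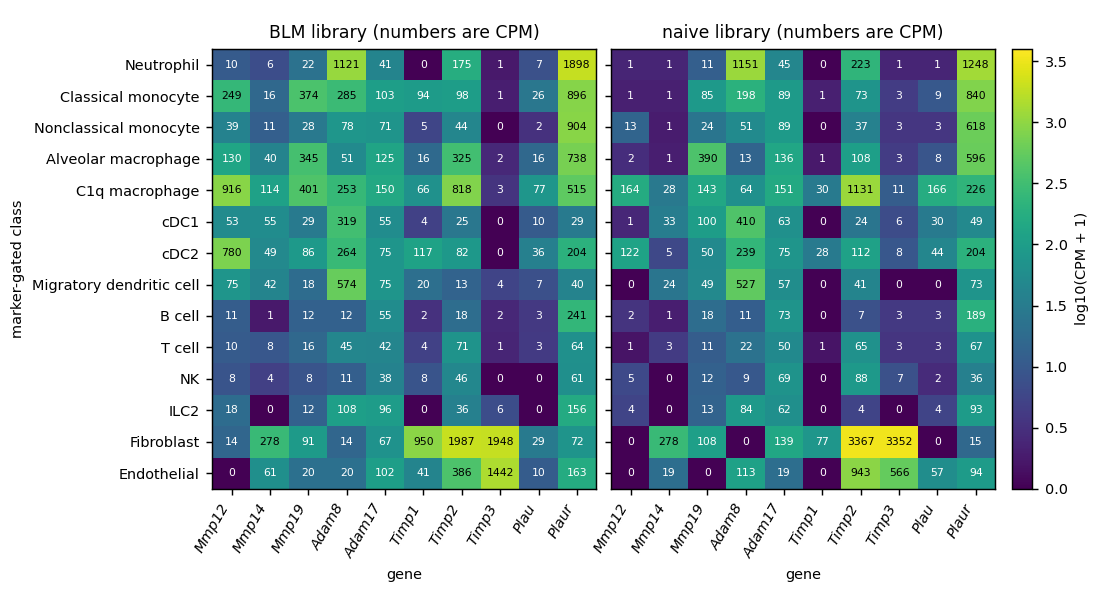
CPM of the 10 genes (columns) in each marker-gated class (rows) of the BLM and naive libraries, with colour on a log10(CPM + 1) scale. Mmp12 reads 916 in BLM and 164 in naive C1q macrophages, whereas Timp3 is highest in the fibroblast and endothelial rows.

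Higher levels in BLM cells were counted most often in macrophages. The genes were chosen with earlier results of these data known, so the shares of all genes beside the counts are a description. A gene was counted as apart when the interval of its log2 ratio lay beyond 2-fold, among genes with 20 or more UMIs over both libraries in the class. In alveolar macrophages 5 of the 10 genes were higher in BLM cells by that rule (Mmp12, Mmp14, Adam8, Timp1 and Timp2), against 3.04% of all genes ranked there, and 0 were lower, against 3.09%. In C1q macrophages 4 of 9 were higher (Mmp12, Mmp14, Mmp19 and Adam8), against 1.41% of all genes, and 0 were lower, against 3.51%. The median log2 ratio of the genes of the set was 1.28 in alveolar macrophages, where that of all ranked genes was −0.19, and 1.19 in C1q macrophages, where it was −0.10.

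Fewer of the genes stood apart elsewhere. The interval narrows with more UMIs, so counts of genes in different classes are not on an equal footing. In BLM cells alveolar macrophages had 5553098 UMIs, C1q macrophages 5180552, classical monocytes 965002 and cDC2 548718. In naive cells the same classes had 6741744, 468803, 907200 and 597087. In classical monocytes, the precursors that enter tissue from blood, 3 of 8 were higher (Mmp12, Mmp19 and Timp1), against 1.54% of all genes. In cDC2, dendritic cells that present antigen to CD4 T cells, 3 of 9 were higher (Mmp12, Mmp14 and Timp1), against 1.43%. In cDC1, which cross-present antigen to CD8 T cells, 1 of 8 was higher (Mmp12), against 0.892%, and 0 were lower, against 1.96%. In T cells 1 of 7 was higher (Mmp12), against 0.47%. None passed in neutrophils (0 of 5, against 0.561% of all genes), B cells (0 of 5, 0.213%), NK cells (0 of 3, 0.127%) or nonclassical monocytes (0 of 6, 0.424%). No gene of the set was lower by this rule in any compared class. In nonclassical monocytes 1 naive cell held 14 of the 15 Mmp12 UMIs. Without the highest cell of each library the interval there lay beyond 2-fold (log2 ratio 4.55 [1.70, 10.01]). With 9 against 1 UMI left, that value is under the minimum of 20 UMIs and is not counted by the rule. With clusters in place of gates the cDC2 ratios were 0.95 for Mmp12 and 0.69 for Timp1, under 2-fold, and with no cells left out by doublet score that of Mmp19 in C1q macrophages was 0.89.

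**Figure D2:**
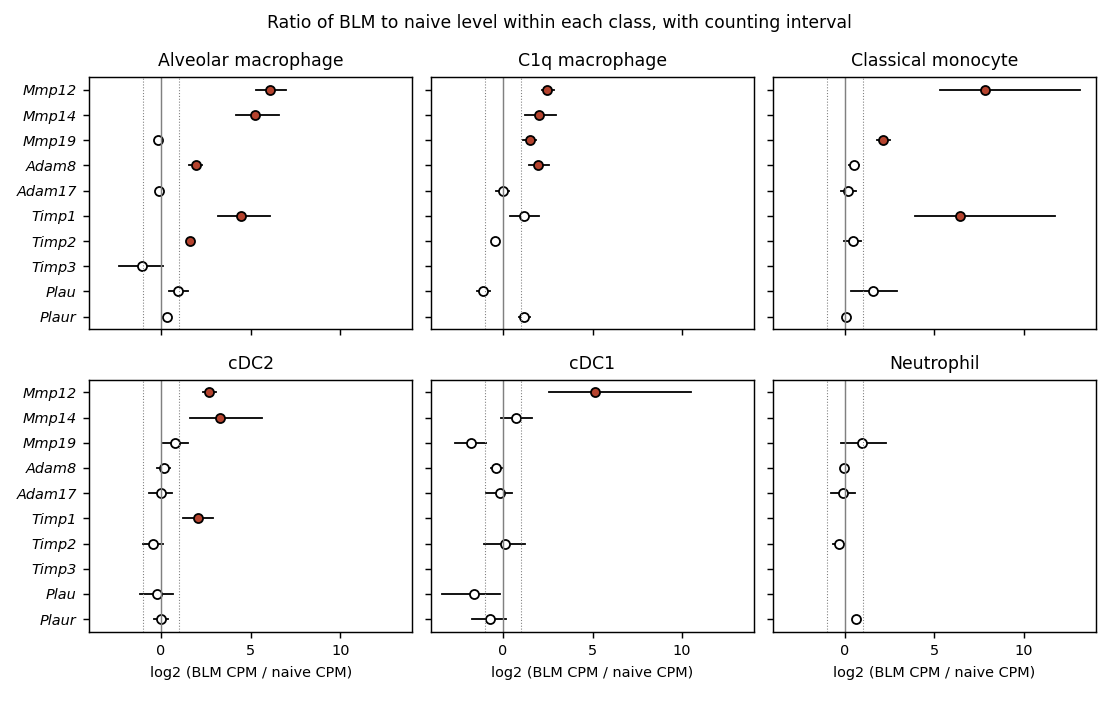
Log2 ratio of BLM to naive CPM of each gene in 6 classes, with 95% counting intervals as bars and filled points where the interval lies beyond 2-fold (dotted lines at 1 and −1). Genes with under 20 UMIs or with 0 UMIs in a library are not drawn. Mmp12 is filled in each panel but that of neutrophils, where it is not drawn, and Adam17 lies near 0 throughout.

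Mmp12, macrophage elastase, showed the largest difference of the 10 between the libraries as a whole. It had 7800 UMIs in BLM cells and 250 in naive cells, which is 368 against 14.8 CPM and a log2 ratio of 4.64 [4.45, 4.82]. C1q macrophages held 60.9% of its BLM UMIs, alveolar macrophages 9.3% and cells that passed no gate 19.3%. Among the ungated BLM cells, the 41 with alveolar and C1q macrophage as their closest classes reached 1358 CPM and the 21 between alveolar macrophage and classical monocyte 1655 CPM.

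Within classes of BLM cells Mmp12 was at 916 CPM [890, 943] in C1q macrophages, 780 CPM [708, 858] in cDC2, 249 CPM in classical monocytes and 130 CPM [121, 140] in alveolar macrophages. Without the highest cell of each class the last pair was at 74.0 and 98.6 CPM, which turned their order. Naive C1q macrophages and cDC2 also carried Mmp12, at 164 CPM [130, 205] and 122 CPM [95.8, 154], and their log2 ratios were 2.48 [2.16, 2.82] and 2.67 [2.31, 3.05]. Naive alveolar macrophages were at 1.93 CPM (13 UMIs in 656 cells), near the 2.48 CPM of naive B cells, and their log2 ratio was 6.08 [5.30, 7.0]. In the BLM library the alveolar level lay well above the 10.5 CPM of B cells.

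The share of cells with an Mmp12 UMI gave the same order of libraries. It was 35.1% of BLM and 12.5% of naive C1q macrophages (median depths 9943 and 5135.5 UMIs), and 17.1% and 7.88% after each cell was thinned to 1000 UMIs, which left out 18 BLM cells and no naive cell. In alveolar macrophages it was 27.9% and 1.98% (median depths 12866 and 9867.5 UMIs), and 6.68% and 0.192% thinned. B cells, which are not known to make the enzyme, had an Mmp12 UMI in 2.35% of BLM and 0.375% of naive cells (1.17% and 0.146% thinned), at median depths of 1713 and 1967 UMIs. The T cell difference rested on 22 BLM UMIs in 22 cells against 1 naive UMI, and its 9.79 CPM in BLM T cells was no higher than the 10.5 CPM of BLM B cells.

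Mmp12 was carried by few cells. In the BLM library 18 cells held 50% of all its UMIs and the highest cell held 397. Of the 490 BLM C1q macrophages 318 had 0 Mmp12 UMIs, 101 had 1 to 9 and 71 had 10 or more. In BLM classical monocytes a single cell held 170 of the 240 UMIs, and without it the level was 74.0 CPM [57.7, 93.5]. The naive side of that class had 1 UMI, and the log2 ratio of 7.82 had a counting interval of 5.33 to 13.13. In cDC1 1 cell held 14 of 27 BLM UMIs. Leaving out the highest cell of each library gave log2 ratios of 5.79 in alveolar macrophages, 2.83 in C1q macrophages and 3.73 in cDC2, where 1 naive cell held 48 of 73 UMIs.

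**Figure D3:**
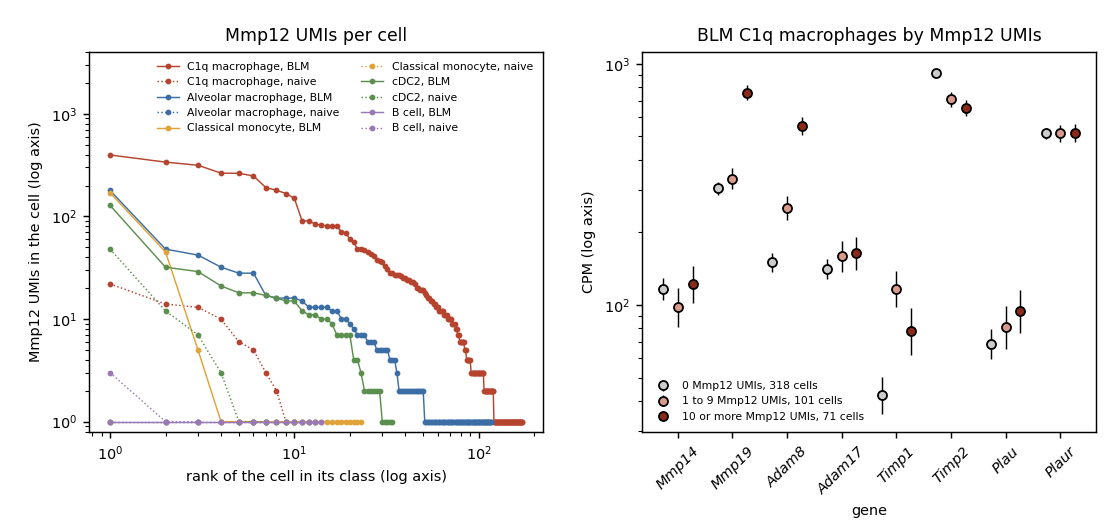
Left, Mmp12 UMIs per cell against the rank of the cell within its class on log axes, with BLM as solid and naive as dotted lines. Right, CPM of the other genes in BLM C1q macrophages split by their Mmp12 UMIs, with 95% Poisson intervals, in which Adam8 reads 150, 253 and 553 CPM while Plaur stays at 515 to 516 CPM.

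The BLM C1q macrophages with 10 or more Mmp12 UMIs also held more Adam8 and Mmp19. These cells were chosen by their Mmp12 count, so the values are a description. Adam8 was at 150 CPM [137, 165] in cells with 0 Mmp12 UMIs, 253 CPM in those with 1 to 9 and 553 CPM [508, 601] in those with 10 or more. Mmp19 was at 305, 334 and 760 CPM in the same order. Timp1 was at 42.2, 117 and 78.2 CPM, Timp2 was at 915, 713 and 658 CPM, and Plaur was at 515, 515 and 516 CPM. The median depth of the cells was 8417.5, 11468 and 13723 UMIs. After thinning to 1000 UMIs, 12.0%, 17.5% and 35.8% of the cells had an Adam8 UMI and 3.4%, 6.8% and 6.4% a Timp1 UMI.

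Genes that led the 71 high cells over the other 419 C1q macrophages, ranked after the values were seen, included Cd36, a scavenger receptor for oxidised lipids, and Dcstamp, which takes part in the fusion of macrophages. Cd36 was at 1499 against 218 CPM and Dcstamp at 285 against 42.1 CPM. Dcstamp was also among the leading genes of BLM cDC2. H2-M2, among the leading genes of naive migratory dendritic cells, was at 150 against 15.4 CPM. The cDC2 gate marker Cd209a went the other way, at 0.98 CPM in the high cells and 19.8 CPM in those with 0 Mmp12 UMIs. Prdx1, an antioxidant enzyme, was at 6339 against 1477 CPM, and Anxa1, an anti-inflammatory phospholipid-binding protein, at 1627 against 512 CPM. C1qa, which the gate used, was at 1008 CPM in the high cells and 1561 CPM in those with 0 Mmp12 UMIs.

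Mmp14, a membrane-anchored collagenase that also activates pro-Mmp2, was spread over more cells. It had 1130 BLM and 80 naive UMIs, 53.4 against 4.74 CPM (log2 ratio 3.49 [3.16, 3.84]), and 119 BLM cells held 50% of its UMIs. BLM C1q macrophages reached 114 CPM [105, 123] and naive ones 27.7 CPM [14.8, 47.4], for a log2 ratio of 2.04 [1.25, 2.95]. In alveolar macrophages the levels were 39.6 and 1.04 CPM (220 and 7 UMIs), for a log2 ratio of 5.25 [4.19, 6.59]. cDC2 had 27 UMIs in BLM against 3 in naive cells (3.29 [1.59, 5.66]). The levels in cDC1 were 54.8 and 32.8 CPM, whose ratio of 0.74 had an interval that included 0. Fibroblast-gated cells were at 278 CPM in both libraries, on 25 and 12 cells.

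Mmp19, a soluble metalloproteinase found in macrophages and fibroblasts, lay mostly in alveolar macrophages of the naive library, which held 87.1% of its 3018 UMIs. Its level there was nearly the same in both libraries, 345 CPM [330, 361] in BLM and 390 CPM [375, 405] in naive cells (log2 ratio −0.18 [−0.26, −0.09]). It was higher in BLM cells of C1q macrophages and classical monocytes, while nonclassical monocytes were at 27.5 and 23.9 CPM (0.20 [−0.91, 1.23]). In C1q macrophages it was 401 against 143 CPM (1.49 [1.14, 1.86]) and in classical monocytes 374 against 84.9 CPM (2.14 [1.78, 2.51]). One naive C1q macrophage held 27 of the 67 UMIs and 1 BLM classical monocyte 86 of 361, and without the highest cells the ratios were 2.10 and 2.0. cDC1 showed the opposite order, with 29.4 CPM in BLM and 99.9 CPM in naive cells (−1.77 [−2.68, −0.94]), on 15 and 67 UMIs.

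Adam8, a sheddase of leukocytes, was highest in neutrophils, where the libraries were close. Neutrophils were at 1121 CPM [1065, 1179] in BLM and 1151 CPM [1073, 1232] in naive cells, for a log2 ratio of −0.04 [−0.16, 0.09], and they held 33.2% of the BLM and 44.5% of the naive UMIs. Migratory dendritic cells followed at 574 and 527 CPM. Macrophages differed between the libraries. C1q macrophages were at 253 CPM [240, 267] in BLM and 64.0 CPM [43.2, 91.4] in naive cells (1.98 [1.46, 2.56]), and alveolar macrophages at 51.3 and 13.5 CPM (1.93 [1.58, 2.28]). Naive B cells were at 10.9 CPM, not far from the naive alveolar value. In cDC1 it was 319 CPM in BLM and 410 CPM in naive cells (−0.36 [−0.65, −0.08]). T cells had 44.5 and 22.1 CPM (1.01 [0.47, 1.56]), and within T cells those with a Trdc UMI had the highest BLM level, 109 CPM on 14 UMIs.

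Adam17, which releases TNF and ligands of the EGF receptor, hardly differed between the libraries. It was at 104 CPM in BLM and 98.1 CPM in naive cells, for a log2 ratio of 0.08 [−0.01, 0.17]. Macrophages had the highest levels of the compared classes, 150 and 151 CPM in C1q macrophages and 125 and 136 CPM in alveolar macrophages. In each of the 10 compared classes the interval of its log2 ratio included 0, and the widest was that of NK cells, from −2.03 to 0.16. Its level was 38.1 CPM or more in each compared class of both libraries.

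**Figure D4:**
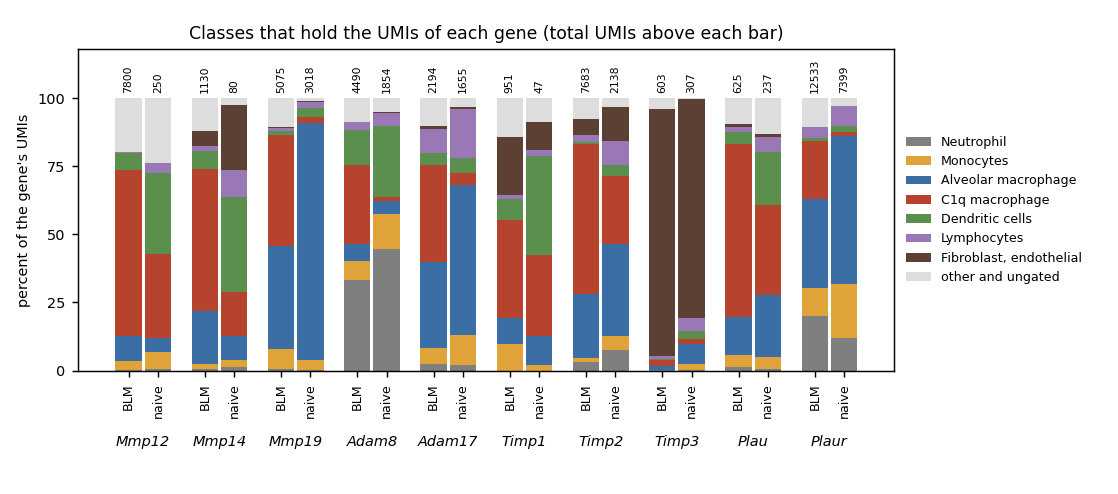
Percent of each gene's UMIs held by groups of classes in the BLM and naive libraries, with the total UMIs above each bar. Timp3 lies mostly in fibroblast- and endothelial-gated cells, Adam8 is led by neutrophils, and the share of C1q macrophages is larger in BLM than in naive cells for each of the 10 genes.

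Timp1, an inhibitor induced in injury, was scarce in naive cells, with 47 UMIs in 3808 cells (2.79 CPM). The BLM library held 951 UMIs or 44.9 CPM, for a log2 ratio of 4.01 [3.59, 4.47]. C1q macrophages held 36.1% of the BLM UMIs, and the 25 fibroblast-gated cells, which are 0.569% of the cells, held 20.8% at 950 CPM [822, 1092]. One of those 25 cells held 66 of their 198 UMIs. In cDC2 the levels were 117 and 28.5 CPM (2.03 [1.25, 2.90]) and in alveolar macrophages 16 and 0.74 CPM (4.43 [3.16, 6.09]). C1q macrophages were at 66.2 CPM [59.4, 73.6] and 29.9 CPM [16.3, 50.1], where the interval of the log2 ratio of 1.15 reached from 0.38 to 2.04 and did not lie beyond 2-fold. Without the highest cell of each library that ratio was 2.71 [1.34, 4.60]. Classical monocytes had 91 UMIs in BLM and 1 in naive cells, for a log2 ratio of 6.42 [3.90, 11.74], and 1 BLM cell held 39 of them. Neutrophils had 0 UMIs in both libraries.

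Timp2, an inhibitor that is also needed by Mmp14 to activate pro-Mmp2, pointed opposite ways in the macrophage classes, a difference that was not tested. In alveolar macrophages it was 325 CPM [310, 340] in BLM and 108 CPM [100, 116] in naive cells, for a log2 ratio of 1.59 [1.46, 1.72], and a UMI was seen in 90.5% and 53.5% of the cells (27.3% and 9.62% thinned). The share in B cells was 3.69% and 1.63%. In C1q macrophages the order was the opposite, with 818 CPM [794, 843] in BLM and 1131 CPM [1036, 1231] in naive cells (−0.47 [−0.60, −0.33]). Its UMIs were spread over more cells than those of Mmp12, with 77 against 10 BLM C1q macrophages holding 50% of them. Fibroblast-gated cells had the highest levels, 1987 and 3367 CPM. Neutrophils were at 175 and 223 CPM, and T cells at 70.8 and 64.8 CPM.

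Timp3, an inhibitor that stays bound to the matrix, was almost absent from the leukocyte classes. Of its 603 BLM UMIs 67.3% lay in the 25 fibroblast-gated cells, at 1948 CPM [1763, 2147], and 23.5% in the 20 endothelial-gated cells, at 1442 CPM [1215, 1700]. In the naive library 12 fibroblast-gated cells held 70.7% of 307 UMIs, at 3352 CPM. The compared classes ranged from 0 to 2.51 CPM in BLM and from 1.39 to 10.7 CPM in naive cells. In a sort for CD45 these are few cells, and a single one held 107 of the BLM UMIs. Ptprc had a UMI in 44% of the BLM fibroblast-gated cells, as given above.

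Plau, the protease urokinase, was found mainly in C1q macrophages, which held 63.7% of 625 BLM and 32.9% of 237 naive UMIs. The level was lower in BLM cells without passing 2-fold by the interval, 76.8 CPM [69.5, 84.8] against 166 CPM [132, 208], for a log2 ratio of −1.11 [−1.47, −0.75]. In alveolar macrophages it was 15.7 and 8.01 CPM (0.97 [0.46, 1.49]). Classical monocytes had 25 and 8 UMIs (1.55 [0.36, 2.91]) and cDC1 5 and 20 (−1.61 [−3.38, −0.15]). For the library as a whole Plau was at 29.5 CPM in BLM and 14 CPM in naive cells.

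Plaur, the receptor that holds urokinase at the surface, was expressed across myeloid cells. BLM neutrophils reached 1898 CPM [1824, 1973] and naive ones 1248 CPM [1168, 1333], for a log2 ratio of 0.60 [0.49, 0.72], which lies within 2-fold. Nonclassical monocytes were at 904 and 618 CPM (0.55), classical monocytes at 896 and 840 CPM (0.09) and alveolar macrophages at 738 and 596 CPM (0.31). C1q macrophages had the highest ratio of the 10 compared classes, with 515 and 226 CPM (1.19 [0.91, 1.48]), and without the highest cell of each library the ratio was 1.37 [1.07, 1.70]. B cells had 241 and 189 CPM, above the 63.6 and 66.9 CPM of T cells, and cDC1 were lowest of the compared myeloid classes at 29.4 and 49.2 CPM.

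C1q macrophages of the naive library also carried more transcripts of other cell types. The 6 neutrophil markers summed to 619 CPM in naive and 200 CPM in BLM C1q macrophages, and the 6 B cell markers to 141 and 26.6 CPM, with a UMI of each of the 6 markers of both lists in both libraries. In alveolar macrophages the neutrophil markers were at 212 and 210 CPM, while 4 of 5 epithelial markers had a UMI and summed to 106 CPM in naive and 19.4 CPM in BLM cells. Fibroblast markers summed to 76.8 CPM in naive and 29.9 CPM in BLM C1q macrophages. In cDC2 the order was the other way for neutrophil markers, with 372 CPM in BLM and 137 CPM in naive cells. The part of these transcripts in the differences above was not tested. The shares and cell counts given are all that separates more cells with a transcript from more transcript per cell.

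The make-up of the library moved the totals as well. C1q macrophages contributed 24.5% of all UMIs in BLM and 2.78% in naive cells, and alveolar macrophages 26.2% and 40%. When each class kept its naive level but took its BLM share of UMIs, the log2 ratio of the library total was 1.91 for Mmp12, 1.82 for Timp1 and 1.35 for Mmp14. When each class kept its naive share but took its BLM level, it was 3.37, 3.16 and 2.65. For Timp2 the same figures were 1.59 and 0.68, against a measured 1.52, and for Plau 1.82 and 0.02, against 1.07. For Plau, then, BLM levels at naive shares left the total near its naive value, whereas for Mmp12 each of the substitutions gave a higher total.

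Macrophages of fibrotic lung can carry a set of genes that includes Spp1, Arg1, Gpnmb, Fabp5, Trem2 and Cd63, often called scar-associated. BLM macrophages were split into 3 equal parts by the mean log level of these 6 genes. In C1q macrophages Mmp19 was at 147, 387 and 557 CPM from the lowest to the highest tertile and Timp2 at 615, 686 and 1032 CPM. Mmp12 was at 441, 1033 and 1102 CPM, but the share of cells with an Mmp12 UMI had no such order, at 31.7%, 40.5% and 33.1% (15.3%, 19.6% and 16.3% thinned). Timp1 was lowest in the highest tertile, at 59.9, 109 and 38.7 CPM, and Plaur showed no order, at 520, 537 and 497 CPM. In alveolar macrophages Mmp19 was at 275, 323 and 415 CPM, whereas Mmp12 had no such order, at 123, 178 and 94.1 CPM. Median depth differed between the tertiles, from 7148 to 13367 UMIs in C1q macrophages and from 10529.5 to 15001.5 UMIs in alveolar macrophages. After thinning, 11.3%, 22.4% and 28.1% of the C1q macrophages had an Mmp19 UMI. Chil3, one of the alveolar gate markers, was at 901, 2085 and 1732 CPM in the C1q tertiles from lowest to highest. Of the 490 BLM C1q macrophages 168 fell in alveolar clusters, and their part in the Mmp19 order was not tested.

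**Figure D5:**
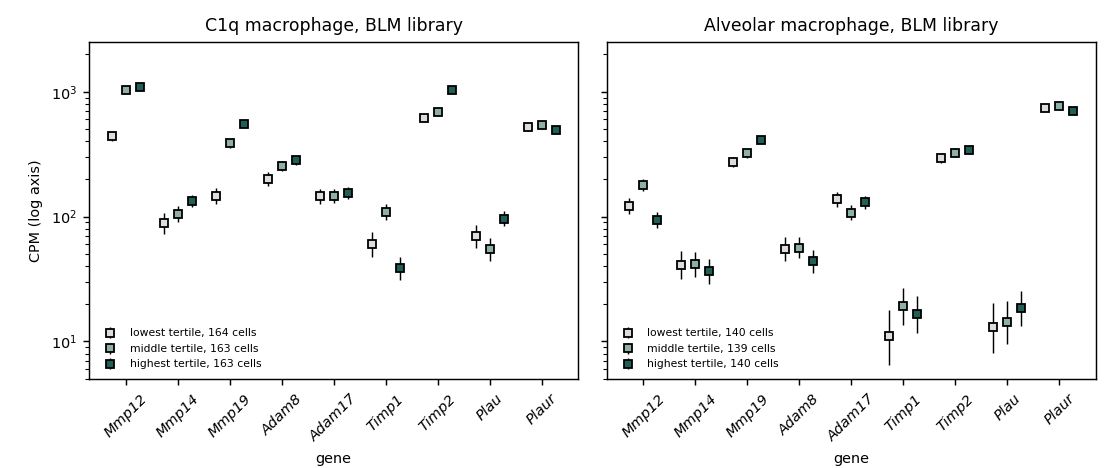
CPM (log axis) of 9 of the genes in BLM C1q macrophages and alveolar macrophages split by the mean log level of 6 scar-associated genes, with 95% Poisson intervals. Mmp19 reads 147, 387 and 557 CPM from the lowest to the highest tertile of C1q macrophages, while Adam17 and Plaur lie close together.

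A list of 50 other genes of the protease system, also chosen with earlier results of these data known, was read in the same way. In alveolar macrophages 3 of the 22 with enough UMIs were higher in BLM cells by the 2-fold rule, Adam10, Adam15 and Ctsk, against 3.04% of all genes ranked. Adam10, a sheddase, was at 276 CPM in BLM and 126 CPM in naive alveolar macrophages (1.13 [1.01, 1.25]). In C1q macrophages 3 of 25 were higher, the lysosomal cathepsins Ctsk, Ctsl and Ctss, against 1.41% of all genes, and 5 were lower, Mmp9, Adam19, Adam33, Serpinb2 and Rhbdf1, against 3.51%. Ctss was at 8616 against 1604 CPM (2.43 [2.32, 2.53]) and Mmp9, a gelatinase abundant in neutrophils, at 13.1 against 230 CPM (−4.13 [−4.59, −3.68]), in the class whose naive cells also held more neutrophil markers. Classical monocytes had 2 of 17 higher, Ctsk and Ctsl, against 1.54% of all genes. cDC1 had 1 of 12 lower, Furin, against 1.96%, and cDC2 had 1 of 15 higher, Plgrkt, against 1.43%. None of the list passed in neutrophils, B cells, T cells, NK cells or nonclassical monocytes. Ctsk is among the markers of the alveolar gate, so its values were used in forming the classes. Over the libraries as a whole, among genes named after their values were seen, Eln, which encodes the elastin that Mmp12 cuts, was at 61.9 CPM in BLM and 14.8 CPM in naive cells. Serpina3n was at 28.0 CPM in BLM and 0.89 CPM in naive cells and Adamts1 at 11.5 and 0.83 CPM. These totals include stromal cells. Of 244 BLM Adamts1 UMIs alveolar macrophages held 1 and C1q macrophages 10. Eln was among the leading genes of BLM fibroblast-gated cells and Adamts1 among those of BLM endothelial-gated cells. Fibroblast-gated cells gave 0.984% of BLM and 0.384% of naive UMIs, and their part in these totals was not tested.

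A list of 9 transcripts whose proteins ADAM proteases release was read as well. Areg, a ligand of the EGF receptor and one of the ILC2 gate markers, was at 176 CPM in BLM and 14.1 CPM in naive alveolar macrophages (3.65 [3.34, 3.97]) and was higher by the rule also in T cells, cDC2 and nonclassical monocytes. Hbegf, another such ligand, was higher in BLM alveolar macrophages (9.36 against 0.59 CPM) and classical monocytes (73.6 against 3.31 CPM on 3 naive UMIs, 4.48 [2.87, 6.79]), but lower in BLM C1q macrophages (88.4 against 346 CPM, −1.97 [−2.23, −1.70]). Tnf was higher in BLM neutrophils (665 against 194 CPM) and lower in BLM cDC1 (21.5 against 197 CPM), and Cd44 was also lower in BLM cDC1. The abundance of the shed proteins was not measured.

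Likeness of pattern was described by Pearson's r of log2(CPM + 10) over 22 sums of a class in a library with 50 or more cells, among 9710 genes. The sums share 2 libraries, so the r values are descriptions. For Mmp12 the gene most like it was Timp1 (r = 0.94), followed by Rai14 (0.86) and Ltbp3 (0.85). In most of the sums Timp1 was under the 10 CPM added before the log, so its r rests on few sums. One of these, BLM classical monocytes, had 170 of 240 Mmp12 UMIs in 1 cell and 39 of 91 Timp1 UMIs in 1 cell. Mmp14 was most like Anpep (0.92), the aminopeptidase CD13, and Mmp19 most like Gamt (0.95). Adam8 was most like Smim3 (0.86), Adam17 most like Mfsd1 (0.92), Timp2 most like Cxcl1 (0.85) and Timp3 most like Zfp771 (0.80). The Timp3 value rests on levels of at most 10.7 CPM, near the 10 added before the log. The fibroblast- and endothelial-gated cells that hold most of its UMIs had under 50 cells and were not among the sums. Plau was most like C3ar1 (0.93), a complement receptor, and Plaur most like Rhbdf2 (0.93), a partner that Adam17 needs to reach the cell surface. Within the set the next highest pair after Mmp12 and Timp1 was Mmp19 and Adam17 (0.83).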

How the data were processed

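For each library the authors deposited whole-number UMI counts, not normalised. Per the file headers they were made with GRCm38 and GENCODE vM19 by version 1.8 of the BD Rhapsody WTA Analysis Pipeline. The genes and lists were chosen with earlier results of these data known. Genes listed in only 1 table counted as 0 in the other. Barcodes needed 200 genes and no more than 15% mitochondrial UMIs, and the highest 3% by Scrublet score (scanpy 1.11.5) were left out, because its automatic threshold marked 0.177% of BLM and 1.55% of naive barcodes. Cells were gated by the mean level of class markers (score of 0.15 or more and a gap of 0.05 or more to the next class), and clusters of each library served as an alternative. Levels have exact Poisson, shares Clopper-Pearson and ratios exact conditional 95% intervals, built with scipy 1.17.1. Intervals cover counting error only. Depth was 22490782 UMIs in 4714 BLM barcodes and 18019004 in 4062 naive barcodes. The ratio was checked on simulated Poisson counts, the model that the intervals assume. That check cannot cover genes whose UMIs are clumped in few cells, such as Mmp12. The 10 genes were always named, and other genes of the lists only where past 2-fold in a class or where they led their family. Results of some genes of the lists are not reported here.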

Additional observations from a re-analysis of the deposited data

Results flagged for a closer look

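In 4 of the 10 genes the BLM to naive ratio pointed opposite ways in 2 classes, each with an interval on its own side of 0. The share of all genes with such a pair of classes is not given here, so the count is a description and not a trait of the set. With 1 library per group the difference between classes was not tested. For Mmp19 the log2 ratio was 2.14 in classical monocytes and −1.77 in cDC1, 3.91 apart. For Adam8 it was 1.93 in alveolar macrophages and −0.36 in cDC1, 2.29 apart. For Timp2 it was 1.59 in alveolar macrophages and −0.47 in C1q macrophages, 2.06 apart. For Plau it was 0.97 and −1.11 in the same classes, 2.08 apart. The classes were those with the most extreme intervals, and 168 of the 490 BLM C1q macrophages fell in alveolar clusters.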

How the results depend on the processing

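No paired analysis was possible because each group was 1 library. Of 606 recomputed ratios of 70, 560 stayed within the interval of the reported value, 45 left it, and 1 whose interval excluded 0 turned its sign. That was Mmp19 in cDC2, 0.77 as reported and −1.55 with clusters of each library in place of gates. With those clusters the log2 ratio of Mmp12 in C1q macrophages was 3.75, of Adam8 there 1.31, of Timp1 in classical monocytes 3.57 and of Timp2 in alveolar macrophages 1.89. C1q macrophages then held 80.6% of BLM Mmp12 UMIs and fibroblast clusters 95% of Timp3 UMIs. The 20 BLM endothelial-gated cells held 142 of the 603 BLM Timp3 UMIs, and 0% of them fell in clusters of that name. The 95% is therefore not a share of fibroblast-gated cells alone. By log2 ratio, other alternatives moved Mmp12 as well. Mmp12 in C1q macrophages was 1.94 without doublet scores, 1.73 as the mean of each cell's own CPM and 2.83 without the highest cell of each library, an alternative added after the data were seen. Without doublet scores fibroblasts held 63.3% of Timp3 UMIs, and under the stricter gate C1q macrophages held 51.3% of Mmp12 UMIs. Subtracting the B cell level gave 9.67 for Mmp14 in alveolar macrophages, where the naive level is near that of B cells. Counting genes by the ratio itself gave 2356 past 2-fold in C1q and 1612 in alveolar macrophages, against 477 and 654 by the interval. Causes of these moves were not tested. Few UMIs limit some ratios, such as Mmp12 in classical monocytes, where the naive value is 1 UMI.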
